A study of Mus musculus with 6 samples.

Results

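The genes described here encode the ligands, receptors and SMAD proteins of transforming growth factor-beta (TGF-beta), bone morphogenetic protein (BMP) and activin signalling. They were chosen by name alone: every gene with a protein-coding transcript whose symbol begins with Tgfb, Tgfbr, Bmp, Bmpr, Gdf, Inhb, Acvr or Smad in its family form, and Inha. The rule gave 52 genes of the 54309 genes listed, 21669 of which had a protein-coding transcript. By role they were 3 TGF-beta ligands, 20 BMP and GDF ligands, 5 activin and inhibin subunits, 13 receptors and co-receptors, 5 receptor-regulated SMADs, 1 common SMAD and 2 inhibitory SMADs. The remaining 3 matched by symbol and are neither ligands, receptors nor SMADs, namely Bmp1, a protease, Bmp2k, a kinase, and Tgfb1i1, a focal adhesion adaptor.

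Polyadenylated RNA came from the left sciatic nerve of mice whose nerve had been cut (axotomy) 24 h earlier, and the stretch sampled was the stump on the side of the dorsal root ganglia. The mice were C57BL/6, 6 to 8 weeks old, and carried no stated mutation or other treatment. The 2 groups were axotomised males and axotomised females, each with 3 libraries, and each library pooled the nerves of 2 mice, so p-values measure the spread between pools. The question was which transcripts differ between the sexes after injury. Sham libraries are not analysed here, and the values compare the injured nerve of males with that of females.

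In this family a ligand dimer brings together type I and type II receptor kinases at the cell surface, and the type I receptor then phosphorylates receptor-regulated SMADs. TGF-betas and activins act mainly through SMAD2 and SMAD3 and BMPs mainly through SMAD1, SMAD5 and SMAD9; both branches use SMAD4 and are restrained by SMAD6 and SMAD7. In peripheral nerve the pathway is known for its roles in Schwann cell development and repair, in scar and collagen formation and in macrophage behaviour.

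The libraries held 51936195 to 69848769 estimated counts in males and 49158283 to 64802091 in females. Male 1 held 193 counts of Xist, the X-inactivation transcript, against 6 and 16 in the other males and 26310 to 40851 in females, and the Y-linked genes Ddx3y and Eif2s3y reached 139 and 147 counts in female 3, with 0 counts in females 1 and 2 and with 2268 to 3743 counts in males. The Schwann cell markers, among them the myelin gene Mbp, were present in every library. Their summed level was 24453 to 29369 TPM (a level corrected for transcript length) in males and 12124 to 15241 TPM in females, with no overlap, and 4 of 9 passed the test, all higher in males. Macrophage markers summed to 1636 to 2679 TPM in males and 1996 to 3155 TPM in females (1 of 9 higher), adipocyte markers to 113 to 573 TPM and 165 to 1354 TPM, and skeletal muscle markers to 14.4 to 732 TPM and 46.3 to 622 TPM (4 of 13 tested lower in males). Of central neuron markers 8 of 10 were higher in males (summed 45.5 to 63.3 TPM in males and 27.2 to 32.4 TPM in females). Among oligodendrocyte markers 4 of 8 tested were higher in males. Their sums overlapped by a narrow margin, at 19.76 to 32.3 TPM in males and 12.4 to 19.83 TPM in females. Of astrocyte markers 4 of 9 were higher in males, while their sum overlapped, at 88.1 to 102.4 TPM in males and 93.9 to 114.0 TPM in females, and the abundant Gja1 stood at 62.8, 42.2 and 46.3 TPM in males and 72.1, 58.9 and 53.7 TPM in females. The oligodendrocyte genes Ermn and Olig2 were at 0 in every female library. The summed neutrophil, endothelial and fibroblast markers overlapped between the sexes, and no gene of these lists passed. Single genes did not all overlap: the endothelial Vwf and the collagens Col1a1, Col1a2 and Col3a1 were higher in every male library. Col1a1 stood at 304 to 380 TPM in males and 195 to 270 TPM in females. Other genes of the same lists went mostly the other way, with overlap. The endothelial Pecam1 stood at 29.9, 30.7 and 26.8 TPM in males and 48.8, 41.2 and 27.4 TPM in females. Pdgfra, of the fibroblast list, stood at 42.7, 30.7 and 35.1 TPM in males and 50.1, 56.7 and 42.1 TPM in females. The part of these markers in the differences below was not tested except where stated, and in bulk nerve fewer cells of a type and less RNA per cell cannot be told apart.

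**Figure D1:**
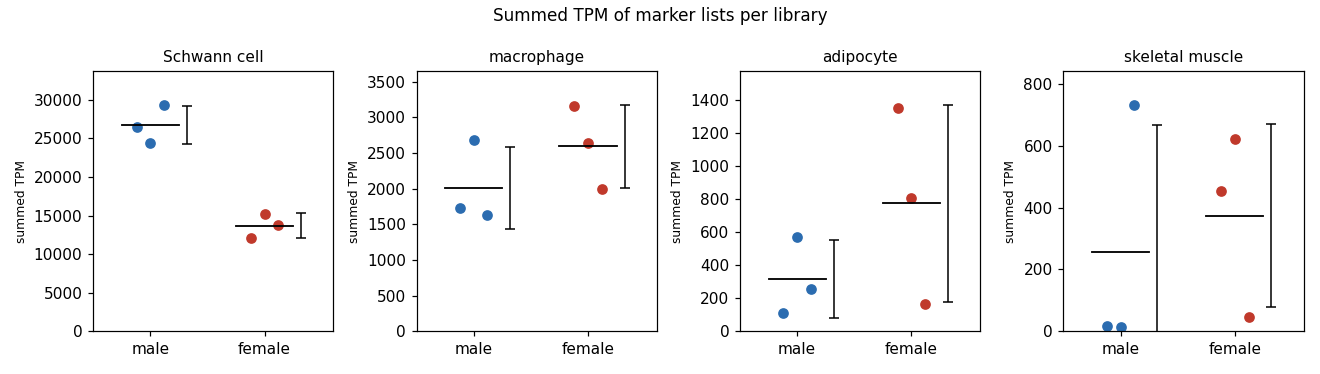
Summed TPM of 4 marker lists in each library, males left of females, with points for libraries, a line for the mean and a bar for the SD (n = 3 each; the SD bar of male skeletal muscle runs below 0 and is cut at the axis). The Schwann cell sums of males, 24453 to 29369 TPM, all lie above those of females, 12124 to 15241 TPM, whereas the other lists overlap between the sexes.

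Of the 52 genes, 43 had enough counts to be tested between the sexes, and 4 of them differed at a Benjamini-Hochberg adjusted p below 0.1, taken over 18424 genes (quasi-likelihood test of edgeR), beside 5.27% of all genes tested. Bmp7, a BMP ligand, was higher in males. Gdf3, a ligand of the activin-like branch, Tgfbr1, the type I TGF-beta receptor, and Bmp1, the procollagen protease, were lower in males. Over all genes 3.81% were higher and 1.46% lower in males. The sexes did not overlap in CPM (normalised read counts, scaled between libraries by TMM) for 8 of the 43 genes, beside 25.5% of all genes. Without overlap, 2 of the 43 were higher in males and 6 lower, beside 13.9% and 11.5% of all genes. The median log2 fold change (male minus female throughout) was -0.05 over the 43 genes and -0.03 over all genes tested, and 25 of the 43 were below 0, beside 53.2% of all genes. An unadjusted p under 0.05 was reached by 7 of the 43 genes, beside 20.7% of all genes. With transcript length as an offset the 4 genes past the threshold were Bmp7 and Tgfbr3l higher and Gdf3 and Tgfbr1 lower, a split of 2 and 2 in place of 1 and 3. The count moved with the library left out, and so did the count over all genes. In the family 0 genes passed without male 3 (6 had an unadjusted p under 0.05) and 0 without female 1 (also 6). It was 1 without female 2, 2 without male 2, 3 without male 1 and 7 without female 3. Over all genes, 7 of 18936 passed without male 3, 1 of 19026 without female 1 and 327 of 19000 without female 2. There were 760 of 18872 without male 2, 651 of 19055 without male 1 and 2612 of 19076 without female 3. Single genes below that no longer passed without a library are to be read beside these counts.

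**Figure D2:**
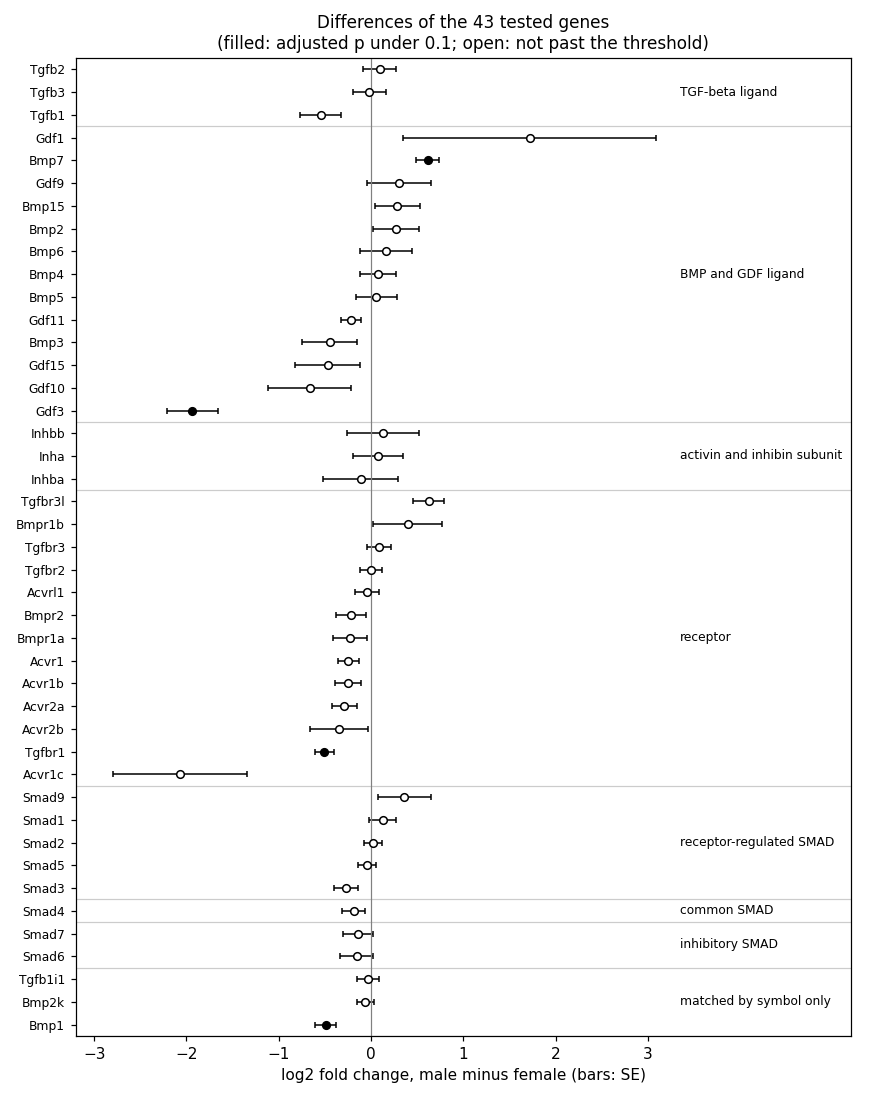
Log2 fold change (male minus female) of the 43 tested genes by role on the x axis, with bars for the SE, filled where the adjusted p was under 0.1. Most estimates lie near 0; Bmp7 stands at 0.61, and Gdf3 at -1.93, Tgfbr1 at -0.51 and Bmp1 at -0.49 are the filled points on the other side.

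To show the DNA in front of the genes that differed, the 250 bases upstream of the start of the most abundant coding transcript are printed for Bmp7 (chr2:172782411-172782660, minus strand), Gdf3 (chr6:122587198-122587447, minus strand) and Tgfbr1 (chr4:47352884-47353133, plus strand), in GRCm39, 5′ to 3′ on the gene's strand. Capitals mark letters that SMAD proteins are known to bind, namely CAGAC on either strand (GTCTG when read from the other strand) and GGCGCC.
Bmp7: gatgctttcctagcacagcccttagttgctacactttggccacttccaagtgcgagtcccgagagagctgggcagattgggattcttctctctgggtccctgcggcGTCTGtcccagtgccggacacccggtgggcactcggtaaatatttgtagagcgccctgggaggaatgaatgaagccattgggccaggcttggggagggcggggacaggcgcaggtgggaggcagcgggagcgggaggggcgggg
Gdf3: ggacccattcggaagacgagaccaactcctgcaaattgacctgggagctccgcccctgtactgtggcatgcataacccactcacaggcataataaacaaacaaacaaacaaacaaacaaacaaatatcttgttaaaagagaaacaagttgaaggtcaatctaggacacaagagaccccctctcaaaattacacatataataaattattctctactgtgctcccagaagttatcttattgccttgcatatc
Tgfbr1: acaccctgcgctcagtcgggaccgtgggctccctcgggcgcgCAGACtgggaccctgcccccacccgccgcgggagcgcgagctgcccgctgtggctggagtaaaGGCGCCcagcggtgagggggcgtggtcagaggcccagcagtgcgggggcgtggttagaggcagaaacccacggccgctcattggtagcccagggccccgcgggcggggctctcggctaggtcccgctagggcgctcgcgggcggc
The Bmp7 window held 1 CAGAC (as GTCTG), the Tgfbr1 window 1 CAGAC and 1 GGCGCC, and the Gdf3 window neither. CAGAC on either strand stood in 17 of the 43 windows of tested family genes and in 41.5% of 15114 windows of tested genes with a coding transcript. GGCGCC, which reads the same on both strands, stood in 6 of 43 and in 11.7% of all windows. The longer palindrome GTCTAGAC, which contains neither of the others, stood in 1 of 43, that of Smad7, and in 0.251% of all windows. G and C made up 62.8% of the Bmp7 window, 75.2% of the Tgfbr1 window and 40.8% of the Gdf3 window, beside a median of 56.0% over all windows. The Bmp1 window lies over exons of other annotated transcripts and is not printed. A match is a description of the letters and not a binding site.

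The most abundant ligands of the family, per length, were Tgfb1 and Bmp7. Tgfb1, the main TGF-beta of injured tissue and of immune cells, averaged 28.5 TPM over the 6 libraries, Tgfb3 averaged 12.8 TPM and Tgfb2 1.27 TPM, and the range of Tgfb1 over libraries overlapped that of Bmp7. Tgfb1 had 21.2, 33.7 and 18.7 TPM in males 1, 2 and 3 and 39.0, 32.2 and 26.3 TPM in females 1, 2 and 3. Its normalised counts were 30.9, 41.8 and 25.5 CPM in males, against 60.5, 42.98 and 39.96 CPM in females. Males 1 and 3 lay below every female and male 2 lay among the females, so the sexes overlapped. The log2 fold change was -0.55 ± 0.22 (SE) with an adjusted p of 0.215 by the edgeR test, and the 95% interval ran from -1.05 to -0.04. Tgfb3 had 35.3, 24.3 and 38.5 CPM in males and 31.3, 37.3 and 30.6 CPM in females, and Tgfb2 had 4.16, 3.30 and 4.19 CPM in males and 3.44, 3.85 and 3.64 CPM in females. Both overlapped between the sexes, with log2 fold changes of -0.02 ± 0.18 and 0.09 ± 0.18, and the sign of Tgfb3 turned under another scaling of the libraries. None of the 3 TGF-beta ligands passed by edgeR, DESeq2 or limma-voom, and Tgfb1 alone had an unadjusted p under 0.05.

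Among the 20 BMP and GDF ligands, 13 were tested and 2 passed, in opposite directions. Bmp7, a BMP known for its part in kidney and nervous system development, was the most abundant at a mean of 27.8 TPM, ahead of Bmp6 at 5.74 TPM and Bmp3 at 5.21 TPM. The gene (ENSMUSG00000008999.8) lies on chr2:172709805-172782410, minus strand. It had 101.3, 77.9 and 95.4 CPM in males, against 56.2, 58.6 and 64.9 CPM in females, and every male library lay above every female library. The log2 fold change was 0.61 ± 0.12 (SE; 95% interval 0.33 to 0.90), 1.53-fold higher in males, with an adjusted p of 0.0582 by the edgeR test. Nearly all of its signal came from the coding transcript Bmp7-201, which held 99.98% of its TPM. The estimate stayed between 0.53 and 0.75 under 17 alternatives, and it passed the threshold in 10 of them. It no longer passed without male 1, male 3, female 1 or female 2, where the adjusted p was 0.123, 0.223, 0.217 and 0.152, nor with the skeletal muscle score as a covariate (adjusted p = 0.173). Bmp7 also did not pass with the replicate number as a block or at an adjusted p under 0.05. Schwann cell markers, as given above, were also higher in every male library.

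Gdf3, a ligand that in mouse is known from embryonic cells, fat tissue and macrophages and that acts through the receptor Acvr1c, showed the largest fold difference among the 4 genes past the threshold. The gene (ENSMUSG00000030117.6) lies on chr6:122582317-122587197, minus strand, and overlaps Dppa3 on the opposite strand. It had 0.905, 1.90 and 1.38 CPM in males, against 5.74, 4.87 and 5.38 CPM in females. The sexes were well apart, with the highest male below the lowest female. The log2 fold change was -1.93 ± 0.28 (SE; 95% interval -2.59 to -1.28), 3.82-fold lower in males, with an adjusted p of 0.0347 by the edgeR test. In counts this was 61, 107 and 71 reads in males and 294, 275 and 338 in females, so the gene is a low one. It passed in 14 of 17 alternatives, with estimates between -2.19 and -1.70. It did not pass without male 3 (adjusted p = 0.144), without female 1 (adjusted p = 0.159) or with the replicate number as a block. It was the 1 family gene that passed with the skeletal muscle score as a covariate and at an adjusted p under 0.05. Adipocyte markers summed to 113, 573 and 257 TPM in males 1, 2 and 3, the order of their Gdf3 levels, and to 1354, 808 and 165 TPM in females 1, 2 and 3, whose Gdf3 levels lay close together. The macrophage marker Adgre1 stood at 18.4, 23.4 and 19.0 TPM in males and 73.0, 52.8 and 21.0 TPM in females. Another macrophage marker, Cx3cr1, went the other way, at 7.83, 6.30 and 5.82 TPM in males and 3.95, 5.12 and 2.91 TPM in females. Of the 9 macrophage markers 1 passed as higher in males and 0 as lower, and their sums overlapped. The part of adipocyte or macrophage markers in the Gdf3 difference was not tested.

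**Figure D3:**
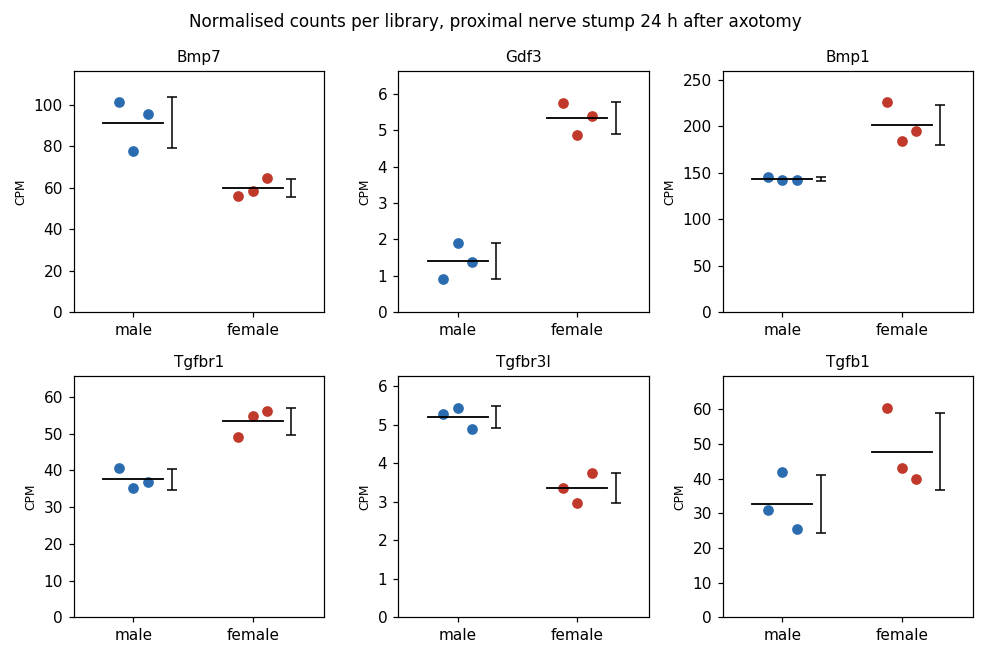
Normalised counts (CPM, y axis from 0) of 6 genes in each library, males left of females, with points for libraries, a line for the mean and a bar for the SD (n = 3 each). Bmp7 and Tgfbr3l lie higher and Gdf3, Bmp1 and Tgfbr1 lower in every male library than in every female library, while Tgfb1 overlaps, with male 2 at 41.8 CPM among the females.

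The other 11 tested BMP and GDF ligands did not pass. Bmp6 had 16.4, 9.16 and 16.9 CPM in males and 11.1, 17.0 and 9.93 CPM in females, and Bmp3, a BMP that in mouse opposes other BMPs, had 17.4, 12.1 and 21.9 CPM in males and 15.8, 32.6 and 21.6 CPM in females, so both overlapped. Gdf11, a close relative of myostatin, had 15.01, 14.2 and 14.6 CPM in males and 16.7, 17.6 and 16.7 CPM in females. Its libraries did not overlap, but the difference was small at -0.22 ± 0.11 with an adjusted p of 0.286 by edgeR. Gdf10, a ligand with a role in axonal sprouting after stroke in mouse, stood at 22.9 CPM in male 1, 8.35 in male 2 and 6.57 in male 3, against 18.0, 25.96 and 16.1 CPM in females. Male 1 lay among the females and the other males below them. Gdf10 did not pass (-0.67 ± 0.45, adjusted p = 0.433) and passed by edgeR without male 1, at -1.43 with an adjusted p of 0.0582. Bmp2, Bmp4, Bmp5, Bmp15, Gdf9 and Gdf15 lay between 0.409 and 7.92 CPM in every library and had log2 fold changes from -0.47 for Gdf15 to 0.31 for Gdf9. Gdf15, a stress-induced ligand, changed the transcript that its reads were assigned to: all of them stood on Gdf15-201 in male 1 and female 3 and on Gdf15-202 in female 1.

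Gdf1, a ligand of the left-right axis in embryos, shares its locus on chromosome 8 and its strand with Cers1, a ceramide synthase, and its values depend on how reads were split between them. Gdf1 had 2.09, 3.55 and 2.14 CPM in males and 0, 0 and 2.32 CPM in females 1, 2 and 3. In females 1 and 2 the Cers1 transcript Cers1-202 held 6.56 and 6.95 TPM and Cers1-203 held 0. In the other 4 libraries Cers1-203 held 10.4 to 10.95 TPM and Cers1-202 held 0. Summed over both genes, the locus had 18.6, 18.1 and 18.4 CPM in males and 12.0, 11.3 and 19.7 CPM in females, so female 3 lay above the males and the sexes overlapped. The Gdf1 log2 fold change of 1.72 ± 1.37 had an adjusted p of 0.515. Without female 3 the adjusted p was 0.0242, with females then at 0 counts, so the fold is not given.

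**Figure D4:**
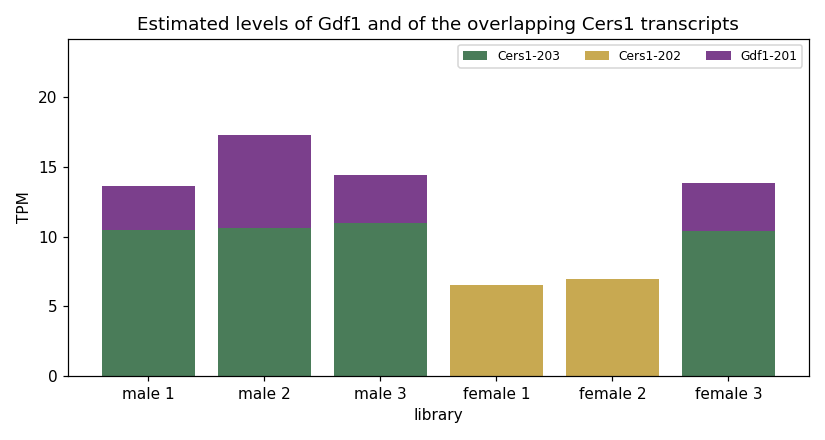
Estimated TPM (y axis) of Gdf1-201 and of the overlapping transcripts Cers1-203 and Cers1-202, stacked for each library, males left of females. Gdf1 appears in the 4 libraries whose Cers1 reads were assigned to Cers1-203 and is at 0 in females 1 and 2, where Cers1-202 holds them.

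Activins and inhibins are dimers of the subunits encoded by Inhba, Inhbb and Inha, and all 3 were tested without passing by edgeR, DESeq2 or limma-voom, with no unadjusted p under 0.05. Inhba, the activin A subunit, was the most abundant at a mean of 7.68 TPM, beside 3.60 TPM for Inhbb and 1.495 TPM for Inha. It had 46.5, 19.7 and 14.98 CPM in males and 35.3, 20.9 and 31.4 CPM in females. Male 1 was above every female and males 2 and 3 below every female, with a log2 fold change of -0.11 ± 0.41. Inhbb, the activin B subunit, had 16.1, 5.25 and 6.36 CPM in males and 8.73, 8.26 and 8.45 CPM in females. Here too male 1 was the highest of all libraries and the other males the lowest, while the females differed by little. Inha had 1.75, 1.38 and 1.07 CPM in males and 1.45, 1.45 and 1.11 CPM in females. Male 1 was the highest male library for 24 of the 43 tested genes and male 2 the lowest for 23.

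The receptors formed the largest share of the family's RNA. Summed over the 13 receptor genes, levels were 276.7, 226.9 and 259.2 TPM in males and 302.5, 326.1 and 247.9 TPM in females, of 536.0 to 607.6 TPM in males and 547.0 to 695.6 TPM in females for all 52 genes. Tgfbr3, the co-receptor betaglycan, averaged 64.3 TPM, Tgfbr2, the type II TGF-beta receptor, 58.9 TPM, and Bmpr1a, a type I BMP receptor, 35.7 TPM, and each overlapped the next over libraries. Acvrl1 (20.7 TPM), Bmpr2 (19.3 TPM), Acvr1b (17.9 TPM), Acvr1 (16.7 TPM), Tgfbr1 (15.3 TPM) and Acvr2a (14.5 TPM) formed a middle tier whose ranges over libraries overlapped from each to the next. Tgfbr3l, Acvr2b, Bmpr1b and Acvr1c followed at 6.94, 1.98, 0.723 and 0.216 TPM.

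The 3 most abundant receptors did not differ beyond their spread. Tgfbr3 had 290.96, 258.4 and 263.5 CPM in males and 220.1, 256.6 and 290.0 CPM in females. Tgfbr2 had 293.8, 249.2 and 273.9 CPM in males and 281.9, 286.1 and 246.5 CPM in females. Bmpr1a had 116.3, 78.5 and 113.7 CPM in males and 99.6, 127.0 and 135.2 CPM in females. All 3 overlapped, and the 95% intervals of their log2 fold changes were -0.22 to 0.39 for Tgfbr3, -0.27 to 0.28 for Tgfbr2 and -0.65 to 0.19 for Bmpr1a.

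Tgfbr1, the kinase that pairs with Tgfbr2 and phosphorylates SMAD2 and SMAD3, was the 1 receptor that passed. The gene (ENSMUSG00000007613.16) lies on chr4:47353134-47414931, plus strand. It had 40.8, 35.2 and 36.9 CPM in males, against 49.2, 54.7 and 56.3 CPM in females. All males lay below all females, and the log2 fold change was -0.51 ± 0.10 (SE; 95% interval -0.74 to -0.27), 1.42-fold lower in males, with an adjusted p of 0.0575 by edgeR. The transcript Tgfbr1-201 held 95.01% of its TPM. Tgfbr1 passed in 10 of 17 alternatives with estimates of -0.72 to -0.43, and no longer passed without male 2, male 3, female 1 or female 2, where the adjusted p was 0.117, 0.232, 0.161 and 0.145, or with the skeletal muscle score as a covariate (adjusted p = 0.148). Tgfbr1 also did not pass with the replicate number as a block or at an adjusted p under 0.05. Its partner Tgfbr2 had a log2 fold change of 0.00 ± 0.12.

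Tgfbr3l, a betaglycan-like co-receptor for inhibin B known from the mouse pituitary, lies on chr8:4298189-4301423, plus strand, and overlaps the coding gene Gm49320 on the same strand. It had 5.27, 5.44 and 4.87 CPM in males, against 3.36, 2.98 and 3.75 CPM in females, with no overlap. The log2 fold change was 0.63 ± 0.17 and the adjusted p of 0.104 missed the threshold. It passed in 5 of 17 alternatives (the DESeq2 Wald test, a mean CPM of 1 or more, a transcript length offset, coding genes alone and without female 3). Its coding transcript Tgfbr3l-201 held 35.98% of the gene's TPM and retained-intron transcripts most of the rest. That coding transcript stood at 3.498, 4.58 and 3.56 TPM in males and 0.565, 1.45 and 1.33 TPM in females, so the sexes did not overlap on it either.

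Acvr1c, the type I receptor also called ALK7 that is known from fat tissue, was low and uneven. It had 0.148, 0.532 and 0.371 CPM in males and 2.77, 1.22 and 0.414 CPM in females. Female 3 lay among the males and females 1 and 2 above them. The log2 fold change of -2.07 ± 0.72 had an adjusted p of 0.169 by edgeR and 0.0352 by the DESeq2 Wald test, and 0.0614 by edgeR without female 3. The same ordering of females held for the adipocyte marker Adipoq, at 3.25, 18.8 and 12.1 TPM in males and 56.6, 29.8 and 5.62 TPM in females, and its part in the Acvr1c values was not tested.

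The remaining 7 receptors had log2 fold changes from -0.34 to 0.40. Acvr1, a type I receptor for BMPs and activins, had 34.4, 29.6 and 27.9 CPM in males and 34.6, 35.4 and 39.0 CPM in females, without overlap but by a margin of 34.4 to 34.6 CPM, and did not pass (-0.24 ± 0.12, adjusted p = 0.277). The activin type I receptor Acvr1b (-0.25), the type II receptors Acvr2a (-0.29) and Acvr2b (-0.34) and the BMP type II receptor Bmpr2 (-0.22) were estimated below 0 and the type I receptors Acvrl1 (-0.05) and Bmpr1b (0.40) on either side, each with libraries that overlapped between the sexes. Of all 13 receptors 9 were estimated below 0, beside 53.2% of all genes tested.

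**Figure D5:**
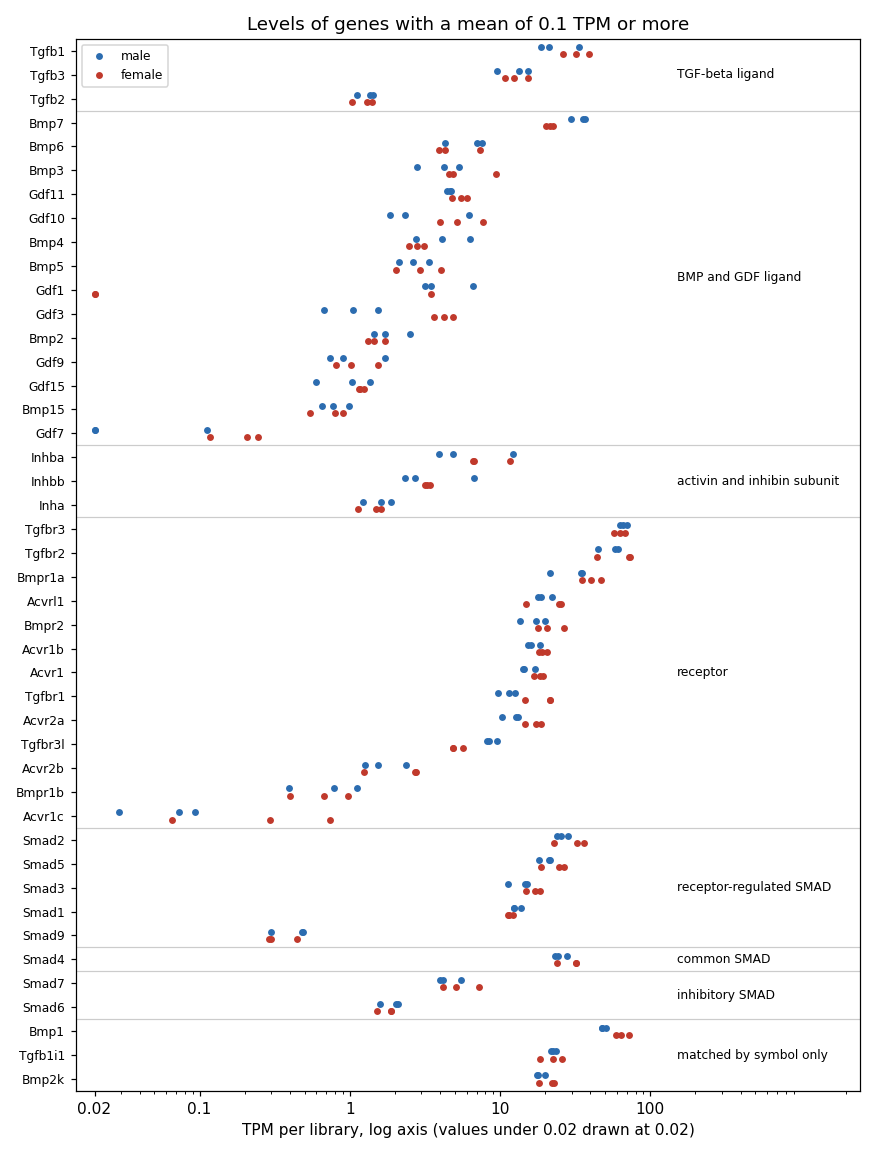
TPM (log x axis) of the genes with a mean of 0.1 TPM or more in each library, grouped by role, with males drawn above females and values under 0.02 drawn at 0.02. The receptors Tgfbr3 and Tgfbr2 (means of 64.3 and 58.9 TPM) stand highest, Bmp7 and Tgfb1 lead the ligands, and Acvr1c and Gdf7 lie lowest.

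The SMADs are the intracellular carriers of the signal. Smad2 averaged 28.2 TPM, Smad4 27.2 TPM, Smad5 21.8 TPM, Smad3 15.3 TPM and Smad1 12.3 TPM, whereas Smad9 averaged 0.384 TPM. The inhibitory SMADs stood at 5.02 TPM for Smad7 and 1.83 TPM for Smad6. None of the 8 passed by edgeR, DESeq2 or limma-voom, and none had an unadjusted p under 0.05 by edgeR. Smad2 had 71.7, 62.1 and 66.5 CPM in males and 66.6, 70.1 and 61.3 CPM in females. Smad5 had 90.2, 80.9 and 86.2 CPM in males and 83.2, 94.3 and 88.2 CPM in females. Smad4, the SMAD shared by both branches, had 56.0, 40.2 and 47.2 CPM in males and 53.6, 55.1 and 54.5 CPM in females. These 3 overlapped between the sexes, with 95% intervals of the log2 fold change of -0.21 to 0.25, -0.27 to 0.18 and -0.48 to 0.11. Smad3, the SMAD of TGF-beta and activin, had 55.4, 56.4 and 41.2 CPM in males and 64.0, 59.4 and 61.8 CPM in females. Every male lay below every female, with a difference of -0.27 ± 0.13 that did not pass (adjusted p = 0.284). Smad7, itself induced by TGF-beta as a feedback inhibitor, had 12.2, 9.04 and 8.83 CPM in males and 11.7, 10.6 and 10.9 CPM in females, and Smad6 had 2.33, 2.64 and 2.81 CPM in males and 2.75, 2.94 and 2.96 CPM in females. Smad1 and Smad9, of the BMP branch, had differences of 0.13 ± 0.14 and 0.36 ± 0.29. These 4 overlapped, and the signs of Smad2 and Smad6 turned under another scaling.

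Bmp1 is a tolloid-like metalloprotease that trims procollagens and cuts the BMP antagonist chordin. The gene (ENSMUSG00000022098.11) lies on chr14:70711689-70758178, minus strand. It had 145.6, 142.1 and 141.8 CPM in males, against 226.0, 183.7 and 194.6 CPM in females. Males were close together and all below the females, of which female 1 was highest. The log2 fold change was -0.49 ± 0.11 (SE; 95% interval -0.75 to -0.24), 1.41-fold lower in males, with an adjusted p of 0.0748 by edgeR. The coding transcript Bmp1-201 held 58.3% of the gene's TPM, at 29.4, 25.9 and 27.4 TPM in males and 42.2, 36.7 and 37.5 TPM in females, again without overlap. The transcript Bmp1-205, annotated for nonsense-mediated decay, held 35.2% and overlapped between the sexes, at 17.0, 21.1 and 18.7 TPM in males and 23.5, 21.6 and 18.5 TPM in females. Of the 4 genes past the threshold Bmp1 passed least often, in 8 of 17 alternatives: it did not pass with a transcript length offset (-0.38, adjusted p = 0.123), with the skeletal muscle score (adjusted p = 0.238), or without male 1, 2 or 3 or female 1 or 2, where the adjusted p was 0.150, 0.138, 0.278, 0.227 and 0.114. Bmp1 also did not pass with the replicate number as a block or at an adjusted p under 0.05. Bmp2k had 68.4, 71.6 and 77.8 CPM in males and 75.4, 74.1 and 77.8 CPM in females. Tgfb1i1 had 27.9, 28.5 and 26.7 CPM in males and 29.3, 31.2 and 24.5 CPM in females. Neither differed beyond its spread, and the sign of Tgfb1i1 turned under another scaling.

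The 9 genes that were not tested were at or near 0. Bmp10, Gdf2 and Inhbc, which are known from heart and liver, had 0 counts in every library. Bmp8a, Bmp8b, Gdf5, Gdf6, Gdf7 and Inhbe had at most 14 counts in any library. Gdf7, a roof plate BMP, had 0, 0 and 0.112 TPM in males and 0.118, 0.243 and 0.208 TPM in females.

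Beyond the family itself, 78 regulators and targets of the pathway were read from the same fit, listed by role and not by how they moved. Of these, 68 were tested and 2 passed, beside 5.27% of all genes, a count that does not set the lists apart. They were Pcsk6, higher in males, and Skil, lower in males, and the median log2 fold change of the 68 was -0.07. Pcsk6, the proprotein convertase PACE4 that cleaves the precursors of BMPs and related ligands, had 69.8, 58.9 and 74.4 CPM in males, against 41.8, 47.5 and 41.0 CPM in females. Every male was above every female, at 0.64 ± 0.12, 1.56-fold higher, with an adjusted p of 0.0470 by edgeR. It passed in 13 of 17 alternatives and not without male 1, male 3 or female 1 (adjusted p = 0.101, 0.192 and 0.188), nor with the replicate number as a block. Skil, the SnoN protein that holds SMAD targets silent and is itself a TGF-beta target, had 34.6, 27.4 and 23.5 CPM in males, against 50.6, 48.98 and 41.9 CPM in females. Every male was below every female, at -0.73 ± 0.16, 1.66-fold lower, with an adjusted p of 0.0674 by edgeR. It passed in 10 of 17 alternatives and not without male 2, male 3, female 1 or female 2 (adjusted p = 0.117, 0.223, 0.230 and 0.158). Nor did it pass with the skeletal muscle score as a covariate (adjusted p = 0.187), with the replicate number as a block or at an adjusted p under 0.05.

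By list, and beside 5.27% of all genes past the threshold and 20.7% at an unadjusted p under 0.05, 0 of 15 tested extracellular antagonists passed by edgeR (2 had an unadjusted p under 0.05, and 2 passed by DESeq2), 1 of 12 genes of latency and activation (3 and 3), 0 of 7 co-receptors (1 at an unadjusted p under 0.05 and 1 by DESeq2), 1 of 19 intracellular regulators (2 and 2), 0 of 14 commonly used target genes (2 and 1), and Amh, the 1 tested of 3 other ligands, did not pass (0.69 ± 0.53). limma-voom gave the same counts as edgeR for each list. The shares of 5.27% and 20.7% are those of edgeR. The DESeq2 Wald test passed 2436 of 18424 genes in all and 9 of the 68 tested genes of these lists. Furin, another convertase, averaged 83.4 ± 5.06 CPM in male nerves and 125.9 ± 30.6 CPM in female nerves (SD, n = 3 each), with a log2 fold change of -0.59 and an adjusted p of 0.114, estimated opposite to Pcsk6. Itgb8, an integrin subunit that frees latent TGF-beta, averaged 253.4 ± 24.4 CPM in male nerves and 392.3 ± 107.1 CPM in female nerves (-0.63, adjusted p = 0.144). The BMP-binding protein Crim1 (-0.73, adjusted p = 0.126) and the SMAD anchor Zfyve16 (-0.62, adjusted p = 0.134) were estimated below 0, and the BMP antagonist Nbl1 (0.63, adjusted p = 0.162) and the BMP co-receptor Rgmb (0.46, adjusted p = 0.153) above 0. Among target genes, Col1a1, a collagen chain, averaged 1344 ± 226 CPM in male nerves and 988.8 ± 126 CPM in female nerves (0.44, adjusted p = 0.220), and Id4, a BMP target, 14.97 ± 1.55 CPM in male nerves and 8.87 ± 4.23 CPM in female nerves (0.75, adjusted p = 0.231).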

How the data were processed

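Per the labels, RNA of 6 axotomised nerve pools was made into strand-specific poly-A libraries and sequenced from both ends. Tools named in the processing notes of the submitters are Trimmomatic 0.39, Salmon 1.5.2 and MultiQC 1.9. The authors deposited Salmon's estimated counts per transcript, which are not normalised, with TPM, which the authors' tool corrected for effective length, and the transcript and effective lengths. Reads shared by overlapping or similar transcripts were split by Salmon's model, so such genes can exchange counts. The study names a GENCODE release on GRCm39, the file headers name no build, and coordinates and upstream windows here come from GENCODE M39 on GRCm39.

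Counts were summed per gene and rounded. In R 4.3.3 with edgeR 4.0.16, low genes were dropped by filterByExpr, libraries were scaled by TMM and sex was tested alone by the quasi-likelihood F test. Benjamini-Hochberg adjustment covered all 18424 tested genes, and the threshold was an adjusted p under 0.1. The SE is the log2 fold change over the square root of F. TPM was used to compare genes and to give marker, role and single-transcript levels in each sex, without TMM scaling. The tests and the other comparisons of the sexes rest mainly on counts and CPM. Alternatives were DESeq2 size factors, library size alone, the DESeq2 1.42.0 Wald test, limma-voom (limma 3.58.1), other filters, a length offset, coding genes alone, a replicate block, a skeletal muscle score, leaving out each library and a threshold of 0.05.

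The family genes, pathway lists and marker lists were chosen with earlier results of these data known. Values per library are given for each family gene past the threshold, for those without overlap at an unadjusted p under 0.05, and for the 3 most abundant per role. Of the pathway lists, genes past the threshold and at most 2 others per list are named. Gdf1, Cers1, Gdf10, Gdf11, Gdf15, Acvr1, Acvr1c, Gdf7, Adgre1, Cx3cr1, Gja1, Adipoq, Vwf, Pecam1, Pdgfra, Col1a2 and Col3a1 were added after their values were seen. A Schwann cell marker of the original list is not reported here, and the list was summed without it. No library was a copy of another (44.7 to 134 for the chi-square over its degrees of freedom, within a sex). On simulated data with 200 changed genes among 18112 tested, the edgeR test recovered 92.4% of 4-fold and 71.3% of 2-fold changes with 14 false calls. Same-numbered male and female libraries did not deviate together, so the main fit has no pairing.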

Additional observations from a re-analysis of the deposited data

How the results depend on the processing

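No family gene past the threshold and neither Pcsk6 nor Skil changed sign under any of the 17 alternatives, while 6 genes that did not pass (Bmp5, Smad2, Smad6, Tgfb1i1, Tgfb3 and Tgfbr2) changed sign under another scaling. All genes past the threshold numbered 971; the DESeq2 Wald test gave 2436, no filter on low counts 1617, the skeletal muscle score 470 and an adjusted p under 0.05 284, and leaving out a library gave 1 (without female 1) to 2612 (without female 3). The family count of 4 became 1 with the muscle score and 1 at an adjusted p under 0.05, and 0 to 7 with a library left out. Family genes higher in males numbered 1; this became 2 under the DESeq2 Wald test, a mean CPM of 1 or more, the length offset and coding genes alone, 0 with the muscle score and at an adjusted p under 0.05, and 0 to 3 with a library left out. Those lower in males numbered 3; this became 1 with the muscle score and 1 at an adjusted p under 0.05, and 0 to 4 with a library left out. The pathway count of 2 became 9 under the DESeq2 Wald test, 6 with no filter, 1 with the muscle score and 1 at an adjusted p under 0.05, and 0 to 5 with a library left out. The cause was not tested.

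With the replicate number as a block, edgeR called 56 genes in all, 0 of the family in either direction (6 at an unadjusted p under 0.05) and 0 of the pathway lists (10 at an unadjusted p under 0.05). The libraries share only a number: the correlations of same-numbered libraries' deviations were -0.04, -0.30 and -0.29, and male 3 deviated most like female 2 (0.39).

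With 3 libraries per sex and estimates that moved with single libraries, absence of a difference cannot be read from a gene that did not pass. Gdf1, Gdf3, Gdf9, Gdf15, Bmp2, Bmp4, Bmp15, Tgfb2, Inha, Acvr1c, Acvr2b, Bmpr1b, Tgfbr3l, Smad6 and Smad9 stood under 6 CPM in every library. At such levels counts limit precision. Gdf1 depended on how reads were split with Cers1, and an exchange of reads between Tgfbr3l and the overlapping Gm49320 was not tested. For Bmp4 and Tgfbr3l the split among their own transcripts enters TPM and not the counts summed per gene.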
